A study of Mus musculus with 30 samples.

Results

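Retinoic acid is made from vitamin A inside cells, and 6 genes that govern its supply were examined in B16 melanoma tumors. Aldh1a1, Aldh1a2 and Aldh1a3 encode the enzymes that make retinoic acid, Cyp26b1 encodes an enzyme that degrades it, and Crabp1 and Crabp2 encode the proteins that bind it in the cell. They are 6 of the 39676 genes with a row in the deposited counts, and all 6 were among the 15926 genes tested. The genes were chosen for their differences between tumor types in these same counts, so their levels and fold changes between types are given as a description, and no test of them is used as support. Whole tumors were taken for bulk RNA sequencing on day 8 after inoculation of C57BL/6 female mice with 1 of 3 B16 lines, with 10 tumors of each type. GFP tumors (B16.GFP.gB.luc) carried green fluorescent protein alone, IFNA4 tumors (B16.IFNα4.gB.luc) also expressed IFNα4, and IFNA9 tumors (B16.IFNα9.gB.luc) also expressed IFNα9, each a subtype of the antiviral cytokine interferon-α. All 3 lines were made by retroviral transduction and sorting, and all carried the herpes simplex glycoprotein gB, cyan fluorescent protein, luciferase and puromycin resistance. Each type came from 1 such line, so an effect of the interferon and a difference between lines cannot be told apart. The study's mice were typically 8 to 12 weeks old, and the ages of these animals are not given in the sources used here.

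Cells take up retinol, oxidize it reversibly to retinaldehyde with alcohol or retinol dehydrogenases, and then oxidize retinaldehyde irreversibly to retinoic acid with the Aldh1a enzymes. Retinoic acid binds nuclear receptors of the RAR family, which pair with RXR receptors and switch on target genes, and the Cyp26 enzymes set its lifetime. In skin, this pathway controls the growth and differentiation of keratinocytes, and in immune tissue it gives lymphocytes a homing program for the gut.

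The 300-base windows around the annotated starts of Aldh1a1, Aldh1a2 and Cyp26b1 are printed here because the levels of these 3 genes were ordered differently across the tumor types. They come from RefSeq on GRCm38.p6, run from 250 bases before to 50 bases after a start, and read 5′ to 3′ on the strand of the gene, with each CG dinucleotide in capitals. Windows were found for 4 of the 6 genes, and Aldh1a1 had an additional one at a start further upstream.
Aldh1a1, chr19:20601718-20602017, plus strand: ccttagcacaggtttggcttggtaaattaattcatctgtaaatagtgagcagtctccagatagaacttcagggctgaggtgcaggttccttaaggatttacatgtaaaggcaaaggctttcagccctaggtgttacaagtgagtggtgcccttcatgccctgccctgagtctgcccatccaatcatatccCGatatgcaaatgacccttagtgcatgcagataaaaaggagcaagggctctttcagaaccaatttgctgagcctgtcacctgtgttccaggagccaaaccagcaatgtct
Aldh1a2, chr9:71215539-71215838, plus strand: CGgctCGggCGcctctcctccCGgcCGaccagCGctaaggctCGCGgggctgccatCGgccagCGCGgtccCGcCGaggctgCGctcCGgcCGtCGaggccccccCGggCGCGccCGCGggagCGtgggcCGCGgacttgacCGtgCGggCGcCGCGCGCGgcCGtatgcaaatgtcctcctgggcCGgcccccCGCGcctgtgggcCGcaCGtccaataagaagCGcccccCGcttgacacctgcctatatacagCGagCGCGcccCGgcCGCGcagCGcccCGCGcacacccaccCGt
Cyp26b1, chr6:84593761-84594060, minus strand: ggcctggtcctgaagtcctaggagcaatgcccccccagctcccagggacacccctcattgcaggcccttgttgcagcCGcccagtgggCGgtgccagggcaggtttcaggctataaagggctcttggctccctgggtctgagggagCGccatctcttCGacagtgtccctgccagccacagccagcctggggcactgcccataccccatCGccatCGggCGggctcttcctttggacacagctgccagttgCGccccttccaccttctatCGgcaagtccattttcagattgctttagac
The Aldh1a2 window held 50 CG dinucleotides and had a GC content of 78.0%, and 0.855% of all 32851 such windows held as many CG or more. The Aldh1a1 window held 1 CG at a GC content of 47.0%, a count reached by 94.6% of all windows. Cyp26b1 lay between them with 9 CG and 62.3% GC, a count reached by 45.8% of windows. The windows were searched on both strands for 2 copies of a nuclear receptor half-site (the letters AGGTCA, or in their place AGTTCA, or else GGGTCA, or else GGTTCA) in the same direction and 1, 2 or 5 bases apart, and for 2 copies of GAAA that lie 2 bases apart, letters found in many interferon-response elements. None of the 5 windows held either pattern, which 0.588% and 3.44% of all windows did.

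The label of each tumor was first compared with its transgene. Ifna4 had 81 to 188 counts in each IFNA4 tumor and 0 in every GFP and IFNA9 tumor. Ifna9 had 55 to 148 counts in each IFNA9 tumor and 0 in all others. Total counts ran from 14598517 to 19788383 per tumor. GFP tumor 7 stood apart from the other GFP tumors. It had the lowest scores of its type (mean log2 CPM of a marker list) for the fibroblast, macrophage, CCR7 dendritic cell, keratinocyte, endothelial, adipocyte and leukocyte lists, and it was the lowest GFP tumor for 5 of the 6 genes. The 3 measured melanocytic markers of 7 listed were present in every type. Levels below are CPM, read counts scaled to a common library size, after TMM scaling, which corrects for library composition, as mean ± SD with n = 10 tumors. The TMM factors ran from 0.768, that of GFP tumor 7, to 1.10. In bulk samples, fewer cells of a type and less RNA per cell cannot be told apart.

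Aldh1a2 was the gene that separated the 2 interferon types (ENSMUSG00000013584.5, chr9:71215789-71296243, plus strand, GRCm38). In GFP tumors its level ran from 1.88 through a median of 5.62 to 8.14 CPM (4.96 ± 1.99). In IFNA4 tumors it ran from 2.23 through 2.91 to 3.72 CPM (2.91 ± 0.49). In IFNA9 tumors it ran from 7.68 through 9.15 to 17.9 CPM (10.0 ± 2.90). All 10 IFNA9 tumors thus lay above all 10 IFNA4 tumors, and 9 of the 10 lay above every GFP tumor, while GFP and IFNA4 tumors overlapped. On the log2 scale, with the standard error (SE) of the fit, the difference was -0.77 (SE 0.20) for IFNA4 against GFP and 1.01 (SE 0.19) for IFNA9 against GFP. IFNA9 was 1.78 (SE 0.20) above IFNA4, a fold of 3.44. Without GFP tumor 7 these values were -0.84, 0.93 and 1.77. The counts behind them were low, from 21 to 148 reads per GFP tumor, 36 to 61 per IFNA4 tumor and 129 to 299 per IFNA9 tumor. IFNA9 tumor 2 had the level of 17.9 CPM and set the wide spread of that type.

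Aldh1a1 (ENSMUSG00000053279.6, chr19:20492715-20643465, plus strand) had, in mean level, the opposite order of the 2 interferon types, as did Aldh1a3, Crabp1 and Crabp2. It ran from 17.0 through a median of 41.2 to 67.9 CPM in GFP tumors (40.2 ± 15.5). In IFNA4 tumors it ran from 52.2 through 82.3 to 122 CPM (80.4 ± 22.1). In IFNA9 tumors it ran from 32.6 through 54.9 to 85.0 CPM (56.4 ± 14.3). The 3 types overlapped, with IFNA4 tumors highest on average. The log2 difference was 1.00 (SE 0.20) for IFNA4 against GFP, 0.49 (SE 0.20) for IFNA9 against GFP and -0.51 (SE 0.20) for IFNA9 against IFNA4. Of the 50-base stretches in its exons, 3.06% also occur in another gene, mostly Aldh1a7, so some reads could belong to either.

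Aldh1a3, the third enzyme of this step, had the smallest differences of the 3 from GFP tumors (ENSMUSG00000015134.15, chr7:66390890-66427517, minus strand). It ran from 10.5 through 21.2 to 34.0 CPM in GFP tumors (19.4 ± 7.08). It ran from 19.4 through 25.0 to 33.3 CPM in IFNA4 tumors (25.8 ± 4.58). It ran from 13.8 through 16.4 to 25.7 CPM in IFNA9 tumors (17.7 ± 4.19). All 3 ranges overlapped, although 7 of the 10 IFNA9 tumors lay below every IFNA4 tumor. The log2 difference was 0.41 (SE 0.17) for IFNA4 against GFP, -0.14 (SE 0.17) for IFNA9 against GFP and -0.55 (SE 0.17) for IFNA9 against IFNA4.

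The makeup of the Aldh1a transcripts also differed between the types. Exon length here is that of all annotated exons of a gene merged, 4937 bases for Aldh1a1, 2264 for Aldh1a2 and 4617 for Aldh1a3. The shares, sums and ratios below depend on these lengths, and the lengths of single transcripts were not tried. Per kilobase of exon, Aldh1a1 made up 54.9% ± 12.1 of the summed level of the 3 genes in GFP tumors, 69.3% ± 7.29 in IFNA4 tumors and 57.6% ± 9.52 in IFNA9 tumors (SD, n = 10). Aldh1a2 made up 14.7% ± 3.60 in GFP tumors, 5.73% ± 1.56 in IFNA4 tumors and 22.6% ± 6.01 in IFNA9 tumors. The lowest Aldh1a2 share in a GFP tumor was 9.32% and the highest in an IFNA4 tumor was 8.73%, so these types did not overlap. The IFNA9 shares, from 15.9% to 36.0%, overlapped those of GFP tumors, which reached 19.8%. The summed level was 14.5 ± 3.50 CPM per kilobase in GFP, 23.2 ± 4.12 in IFNA4 and 19.7 ± 2.45 in IFNA9 tumors. Divided by the level of Cyp26b1 per kilobase, the sum was 1.64 ± 0.387 in GFP, 1.32 ± 0.459 in IFNA4 and 1.16 ± 0.487 in IFNA9 tumors, with ranges that overlapped widely.

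**Figure D1:**
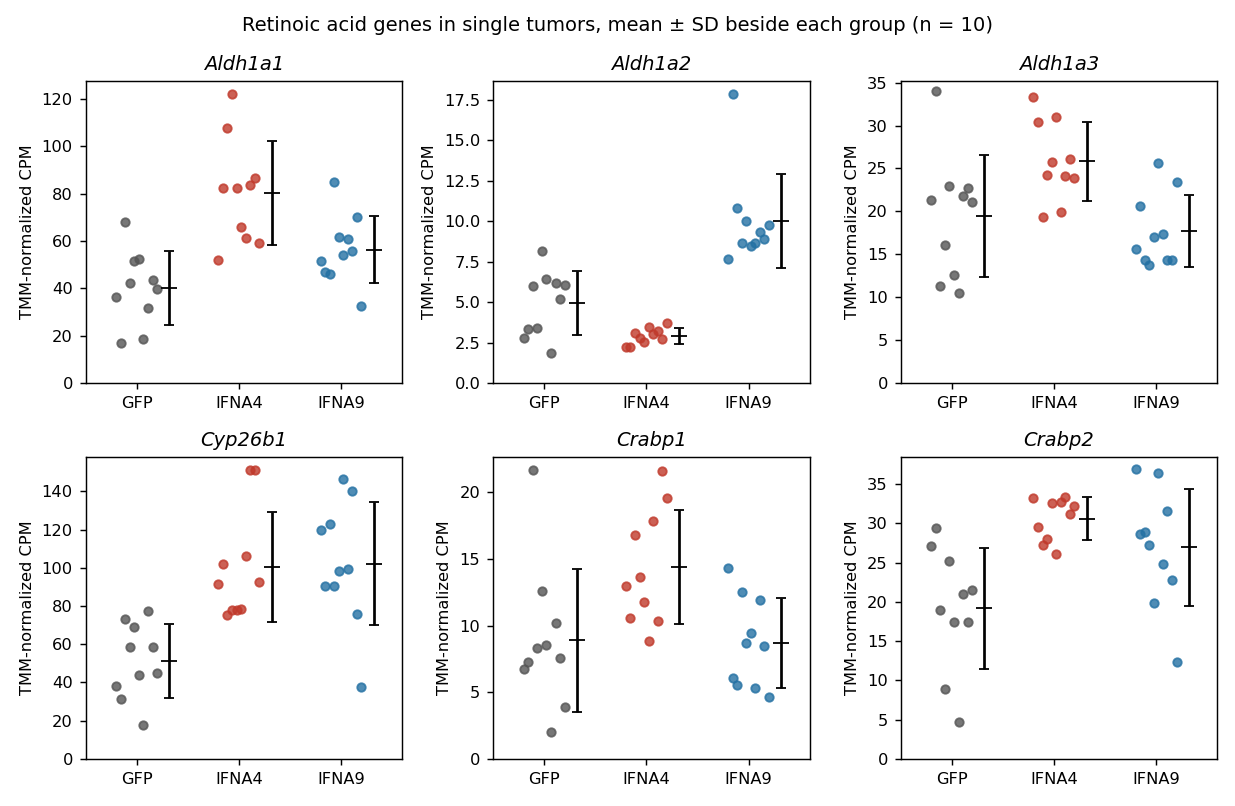
The 6 panels plot TMM-normalized CPM of 1 gene each, on linear axes that start at 0, with a point per tumor and the mean ± SD beside each type (n = 10). Aldh1a2 in IFNA9 tumors (lowest 7.68 CPM) lies above all IFNA4 tumors (highest 3.72 CPM), and the types overlap for the other 5 genes.

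**Figure D2:**
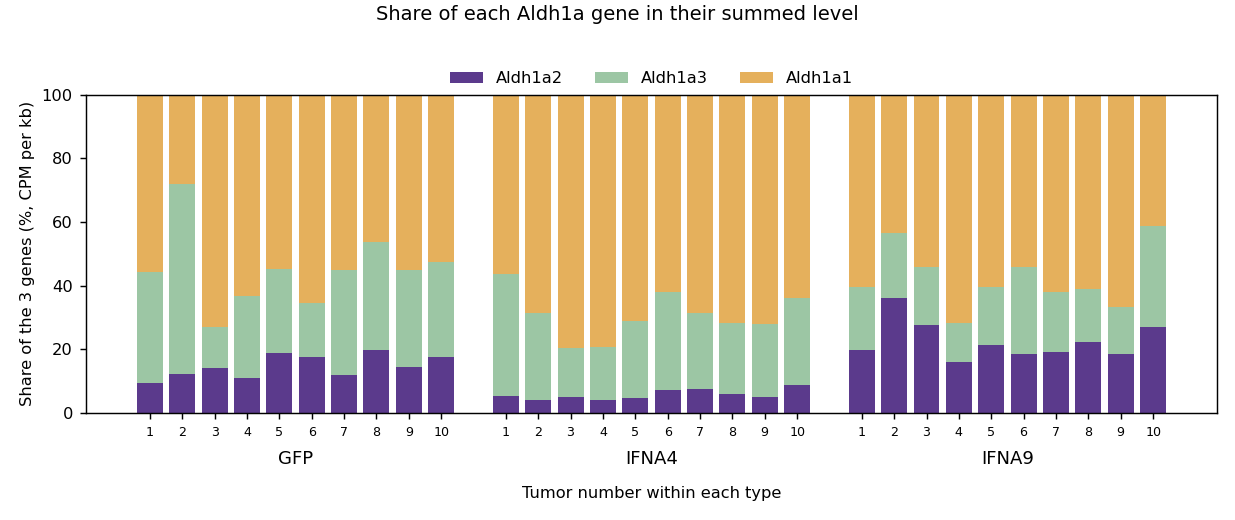
Each bar is 1 tumor, numbered within its type, and its colors give the percent of the summed Aldh1a1, Aldh1a2 and Aldh1a3 level, in CPM per kilobase, that each gene makes up. The Aldh1a2 share reaches 8.73% at most in IFNA4 tumors and starts at 15.9% in IFNA9 tumors.

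Cyp26b1, whose product clears retinoic acid, was higher in both interferon types (ENSMUSG00000063415.12, chr6:84571414-84593908, minus strand). It ran from 17.7 through a median of 51.7 to 77.4 CPM in GFP tumors (51.3 ± 19.3). It ran from 75.1 through 92.0 to 151 CPM in IFNA4 tumors (100.5 ± 28.9). It ran from 37.8 through 98.9 to 146 CPM in IFNA9 tumors (102 ± 32.1). Of the 10 tumors of each type, 9 IFNA4 and 8 IFNA9 tumors lay above every GFP tumor. The log2 difference from GFP was 0.97 (SE 0.22) for IFNA4 and 0.99 (SE 0.22) for IFNA9. The difference between these 2 types was 0.02 (SE 0.22) on the log2 scale, smaller than its error. Without GFP tumor 7, the differences from GFP were 0.89 and 0.90.

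The 2 cellular binding proteins were highest on average in IFNA4 tumors. Crabp1, which holds retinoic acid in the cytoplasm (ENSMUSG00000032291.8, chr9:54764748-54773110, plus strand), ran from 2.05 through 7.95 to 21.7 CPM in GFP tumors (8.88 ± 5.37). It ran from 8.85 through 13.3 to 21.6 CPM in IFNA4 tumors (14.4 ± 4.31) and from 4.62 through 8.58 to 14.3 CPM in IFNA9 tumors (8.68 ± 3.36). The ranges overlapped between all types, and a single GFP tumor reached the highest level of all. The log2 difference was 0.69 (SE 0.27) for IFNA4 against GFP, -0.04 (SE 0.27) for IFNA9 against GFP and -0.73 (SE 0.27) for IFNA9 against IFNA4.

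Crabp2, which carries retinoic acid to its nuclear receptor (ENSMUSG00000004885.5, chr3:87948666-87953376, plus strand), ran from 4.64 through 20.01 to 29.4 CPM in GFP tumors (19.2 ± 7.72). It ran from 26.1 through 31.7 to 33.4 CPM in IFNA4 tumors (30.6 ± 2.70) and from 12.3 through 28.0 to 36.9 CPM in IFNA9 tumors (26.9 ± 7.46). The IFNA4 tumors were close together, and the ranges of all 3 types overlapped. The log2 difference was 0.67 (SE 0.21) for IFNA4 against GFP, 0.49 (SE 0.21) for IFNA9 against GFP and -0.18 (SE 0.21) for IFNA9 against IFNA4. Without GFP tumor 7 the differences from GFP were 0.58 and 0.38.

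As a description, 5 of the 6 genes were higher and Aldh1a2 was lower in IFNA4 than in GFP tumors at an adjusted p under 0.05 (edgeR, over all genes). In that comparison 31.3% of all 15926 genes tested were higher, 34.1% were lower and 18.5% had tumors that did not overlap. In IFNA9 against GFP tumors 4 of the 6 were higher, where 26.9% of all genes were higher, 28.9% were lower and 7.79% did not overlap. In IFNA9 against IFNA4 tumors Aldh1a2 was higher and Aldh1a3 was lower, where 10.5% of all genes were higher, 7.25% were lower and 2.83% did not overlap. Without GFP tumor 7 the 6 genes gave 5, 2 and 4 calls in the 3 comparisons in place of 6, 4 and 2. DESeq2 gave 6, 4 and 4, a fit of only the 20 tumors compared gave 5, 3 and 4, and the call of Crabp2 in IFNA9 against GFP tumors was lost in 11 of 30 fits that left out 1 tumor each. Since the genes were chosen on these comparisons, nothing is read from their counts. The 3 comparisons share tumors.

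Per kilobase of merged annotated exons, Crabp2 had the highest mean level of the 6 transcripts in each type. The order of the genes depends on these lengths, which were 802 bases for Crabp1, 1322 for Crabp2, 4937 for Aldh1a1 and 5352 for Cyp26b1. Orders by the lengths of single transcripts were not tried. In GFP tumors Crabp2 was highest (14.5 CPM per kilobase), followed by Crabp1 (11.1), Cyp26b1 (9.58), Aldh1a1 (8.13), Aldh1a3 (4.21) and Aldh1a2 (2.19). Crabp1 exceeded Cyp26b1 in 5 of 10 GFP tumors and Cyp26b1 exceeded Aldh1a1 in 6, so these neighbors did not differ beyond their spread. In IFNA4 tumors the order was Crabp2 (23.2), Cyp26b1 (18.8), Crabp1 (18.0), Aldh1a1 (16.3), Aldh1a3 (5.59) and Aldh1a2 (1.28 CPM per kilobase). There, Aldh1a1 exceeded Aldh1a3 and Aldh1a3 exceeded Aldh1a2 in all 10 tumors, whereas Cyp26b1, Crabp1 and Aldh1a1 changed places from tumor to tumor. In IFNA9 tumors the order was Crabp2 (20.4), Cyp26b1 (19.1), Aldh1a1 (11.4), Crabp1 (10.8), Aldh1a2 (4.43) and Aldh1a3 (3.83 CPM per kilobase). Aldh1a2 exceeded Aldh1a3 in 8 of the 10 IFNA9 tumors, against 0 of 10 IFNA4 tumors.

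The remaining retinoid pathway was followed with 49 listed genes, of which 41 had a row and 35 passed the filter of a mean of 10 counts. Against GFP tumors, 16 of the 35 rose and 10 fell in IFNA4 tumors, and 12 rose and 9 fell in IFNA9 tumors. Between IFNA9 and IFNA4 tumors, 3 rose and 4 fell. These counts are to be read against the shares of all genes that were higher (31.3%, 26.9% and 10.5%) and lower (34.1%, 28.9% and 7.25%). The median log2 difference of the 35 was 0.22, 0.15 and -0.10 in these comparisons, beside medians of all genes tested within 0.01 of 0. The lists were drawn up with earlier results of these data known. Cyp26a1, Cyp26c1, Rarb, Rbp4, Rdh14, Dhrs4, Cebpe and Ttr were not analysed here.

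Against GFP tumors, the largest differences were those of Stra6l and Rlbp1, from the list of retinol uptake and storage. Of the 7 tested genes of that list, 2 rose and 2 fell in each interferon type against GFP. Over all genes 31.3% were higher and 34.1% lower in IFNA4 tumors, and 26.9% and 28.9% in IFNA9 tumors. Stra6l, a membrane receptor for the retinol carrier of blood, had 0.576 ± 0.333 CPM in GFP, 5.06 ± 1.28 in IFNA4 and 1.91 ± 0.304 in IFNA9 tumors. It rose by 3.11 (SE 0.23, adjusted p = 1.9e-12) on the log2 scale in IFNA4 and by 1.71 (SE 0.23, adjusted p = 5.9e-07) in IFNA9 tumors, and was 1.40 lower in IFNA9 than in IFNA4 (log2 -1.40, SE 0.21, adjusted p = 2.1e-05). Its highest GFP tumor had 1.20 CPM and its lowest IFNA4 tumor 3.28 CPM. IFNA9 tumors ran from 1.16 to 2.31 CPM, below all IFNA4 tumors and overlapping GFP tumors. Rlbp1, which binds retinaldehyde and is best known from the eye, moved the other way, from 15.7 ± 10.4 CPM in GFP to 0.934 ± 0.573 in IFNA4 and 1.66 ± 0.922 in IFNA9 tumors. Its log2 difference was -4.05 (SE 0.36, adjusted p = 7.2e-11) in IFNA4 and -3.23 (SE 0.34, adjusted p = 6.0e-09) in IFNA9 tumors against GFP. GFP tumor 7 had its highest level, 44.1 CPM.

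Of the 13 tested genes that interconvert retinol and retinaldehyde, 7 rose and 4 fell in IFNA4 tumors against GFP, and 6 rose and 5 fell in IFNA9 tumors. Over all genes 31.3% were higher and 34.1% lower in IFNA4 tumors, and 26.9% and 28.9% in IFNA9 tumors. None passed the test between IFNA9 and IFNA4 tumors, where Adh5 had the smallest adjusted p in the edgeR fit (0.082). It was the 1 gene with an unadjusted p under 0.05, and DESeq2 called 0. Adh7, an alcohol dehydrogenase of epithelia that oxidizes retinol, was 22.6 ± 8.87 CPM in GFP, 47.5 ± 9.68 in IFNA4 and 50.5 ± 10.3 in IFNA9 tumors. It rose by 1.07 (SE 0.17, adjusted p = 4.7e-06) and by 1.16 (SE 0.17, adjusted p = 2.8e-06) on the log2 scale. Rdh1, a retinol dehydrogenase, rose from 6.93 ± 3.21 CPM in GFP to 14.8 ± 1.69 in IFNA4 (adjusted p = 0.00043) and 12.4 ± 3.83 in IFNA9 tumors (adjusted p = 0.006). Of the 50-base stretches in its exons, 15.6% also occur in another gene, mostly Rdh16f1, which overlaps it on the same strand. The share was 14.0% for Rdh16 (mostly Rdh9) and 20.4% for Rdh5 (mostly Bloc1s1, which overlaps it on the same strand), so reads of these 3 genes are uncertain. Rdh12, Rdh16, Dhrs9 and Adh1 also rose in both, whereas Rdh5, Rdh11, Rdh13 and Adh5 fell in both. Of these calls, Rdh16 in IFNA9 tumors was lost in 10 of 30 fits that left out 1 tumor each, Rdh5 in 2 (IFNA4) and 3 (IFNA9), and Adh1 in IFNA9 tumors in 1. Rdh10, the main retinol dehydrogenase of the embryo, fell in IFNA9 tumors (log2 -0.28, SE 0.11, adjusted p = 0.03, lost in 8 of 30 such fits) and had a log2 difference of -0.07 (SE 0.11, adjusted p = 0.59) in IFNA4 tumors.

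Fabp5, a fatty acid carrier that can also deliver retinoic acid to a different nuclear receptor, fell from 478 ± 209 CPM in GFP to 226 ± 47.6 in IFNA4 and 253 ± 35.1 in IFNA9 tumors. Its log2 difference was -1.08 (SE 0.16, adjusted p = 1.4e-06) and -0.92 (SE 0.16, adjusted p = 2.7e-05). Aldh1a7, a close relative of Aldh1a1 that shares 7.49% of its 50-base stretches with other genes, mostly Aldh1a1, rose in IFNA4 tumors (8.23 ± 3.30 to 14.0 ± 4.38 CPM, log2 0.77, adjusted p = 0.0047), and had a log2 difference of 0.47 (adjusted p = 0.082) in IFNA9 tumors.

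Of the 5 receptors, 1 passed the test in IFNA4 against GFP tumors and 1 in IFNA9 against IFNA4 tumors. Over all genes 31.3% were higher and 34.1% lower in the first comparison, and 10.5% higher and 7.25% lower in the second. Rarg, the main RAR of skin, rose from 81.9 ± 16.2 CPM in GFP to 104 ± 14.7 in IFNA4 tumors (log2 0.35, SE 0.12, adjusted p = 0.013), and its log2 difference was 0.25 (SE 0.12, adjusted p = 0.081) in IFNA9 tumors. Rara, expressed in most tissues, had log2 differences of 0.23 (SE 0.18) and 0.09 (SE 0.18) from GFP, with adjusted p of 0.26 and 0.66 in the edgeR fit. The partner receptors Rxra (0.22 and 0.15) and Rxrb (-0.29 and -0.36) did not pass the test in either type, and in IFNA9 tumors 0 of the 5 receptors did in edgeR, against 3 at an unadjusted p under 0.05 and 1 by DESeq2. Rxrg, at 3.72 ± 1.94 CPM in GFP, 4.19 ± 1.65 in IFNA4 and 2.38 ± 1.17 in IFNA9 tumors, had a log2 difference of -0.65 (SE 0.28, adjusted p = 0.052) in IFNA9 against GFP tumors, which passed in 10 of 30 fits that left out 1 tumor each. It was lower in IFNA9 than in IFNA4 tumors (log2 -0.81, SE 0.28, adjusted p = 0.042), a call lost in 14 of 30 fits that left out 1 tumor each.

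Among 11 tested genes that retinoic acid is known to raise, 5 rose and 4 fell in IFNA4 tumors, and 4 rose and 2 fell in IFNA9 tumors against GFP. Over all genes 31.3% were higher and 34.1% lower in IFNA4 tumors, and 26.9% and 28.9% in IFNA9 tumors. Rarres2, which encodes the chemoattractant chemerin, rose from 50.7 ± 18.8 CPM in GFP to 117 ± 27.1 in IFNA4 (log2 1.20, adjusted p = 7.1e-06) and 76.7 ± 22.4 in IFNA9 tumors (log2 0.60, adjusted p = 0.013). Ccr9, a gut-homing chemokine receptor, rose from 1.20 ± 0.453 CPM to 4.04 ± 1.03 in IFNA4 (log2 1.73, adjusted p = 3.2e-08) and 2.46 ± 0.717 in IFNA9 tumors (log2 1.01, adjusted p = 0.00017). Rarres1 and Meis1 also rose in both types. Cd38, an enzyme of the cell surface that breaks down NAD, moved the other way, from 36.2 ± 8.85 CPM in GFP to 10.4 ± 2.55 in IFNA4 (log2 -1.80, adjusted p = 1.8e-11) and 20.3 ± 4.43 in IFNA9 tumors (log2 -0.84, adjusted p = 2.1e-05). Between IFNA9 and IFNA4 tumors, Cd38 (log2 0.96, adjusted p = 2.7e-05) and Meis2 (log2 0.49, adjusted p = 0.01) were higher in IFNA9, as Aldh1a2 was. Ccr9 (log2 -0.71, adjusted p = 0.012) and Rarres2 (log2 -0.61, adjusted p = 0.032) were lower in IFNA9, although the call of Rarres2 was lost in 9 of 30 fits that left out 1 tumor each. Direct targets and genes changed through other routes were not separated by this list.

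**Figure D3:**
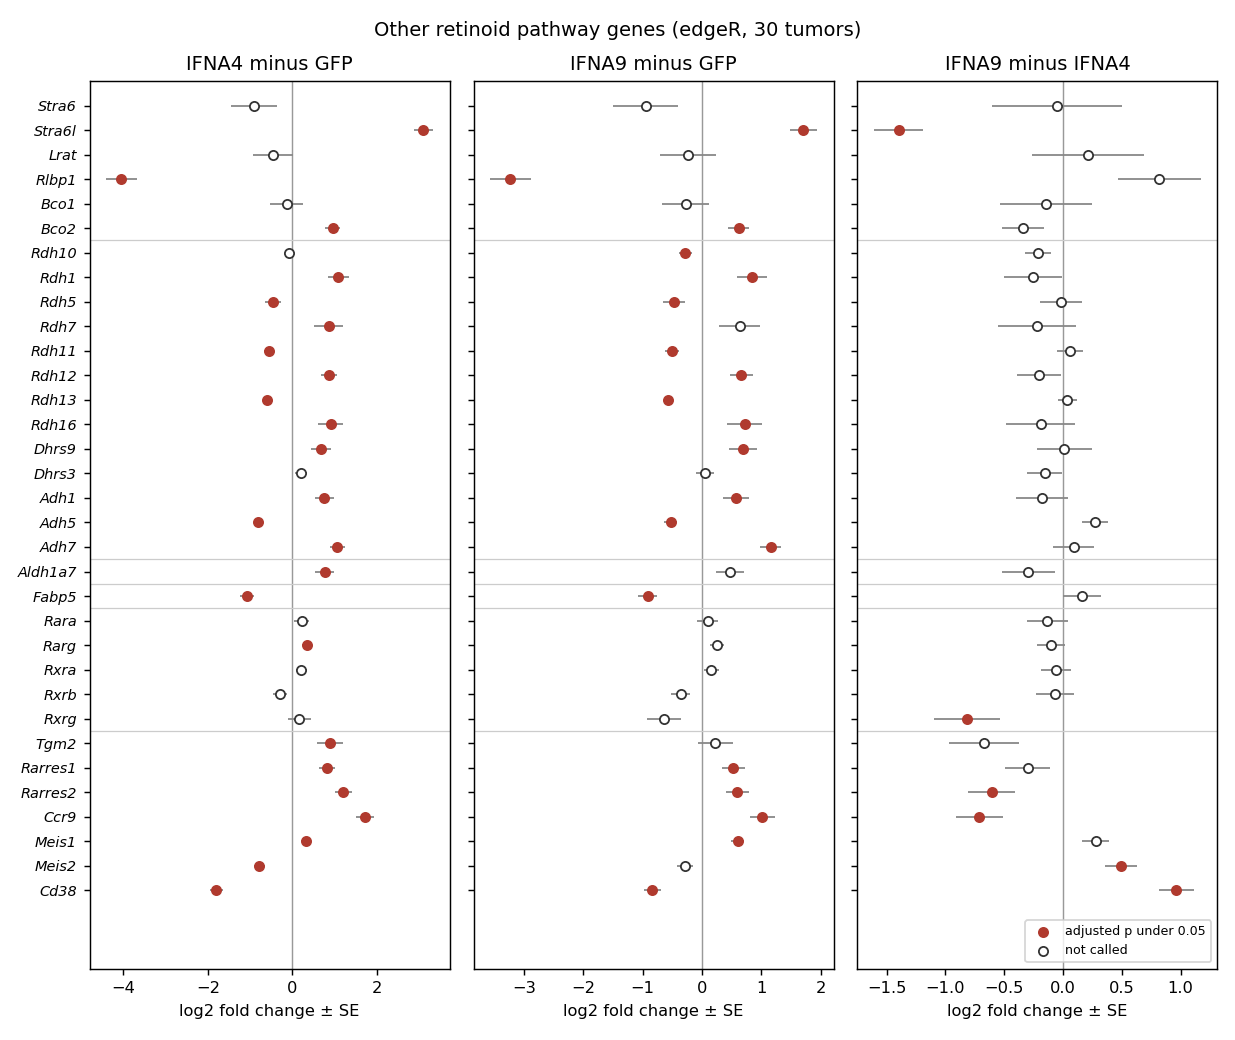
Points give the log2 fold change with its SE of 33 of the 35 tested retinoid pathway genes in the 3 comparisons, grouped by role, with filled points at an adjusted p under 0.05 in edgeR over all genes. The horizontal scales differ between panels. Stra6l and Rlbp1 lie farthest from 0 against GFP tumors, and 6 points are filled between IFNA9 and IFNA4 tumors.

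Markers of other cell types also differed between tumor types, and their part in the levels above was not tested. The counts of markers that follow stand beside all genes tested, of which 31.3% were higher and 34.1% lower in IFNA4 than in GFP, 26.9% and 28.9% in IFNA9 than in GFP, and 10.5% and 7.25% in IFNA9 than in IFNA4. The keratinocyte list summed to 890 to 7119 CPM in GFP, 6388 to 9594 in IFNA4 and 1959 to 8294 in IFNA9 tumors, with 4 of 6 markers higher in IFNA4 and 2 of 6 in IFNA9 tumors than in GFP. The fibroblast list summed to 2998 to 13474 CPM in GFP, 7721 to 13505 in IFNA4 and 7818 to 12724 in IFNA9 tumors, with 3 of 6 and 1 of 6 markers higher than in GFP. The CCR7 dendritic cell list summed to 42.6 to 102 CPM in GFP, 73.3 to 114 in IFNA4 and 78.2 to 104 in IFNA9 tumors. Of its 5 markers, 1 was higher in IFNA4 than in GFP, 2 were higher and 1 was lower in IFNA9 than in GFP, and 1 was higher and 1 was lower in IFNA9 than in IFNA4. All 4 leukocyte markers were higher and all 3 measured melanocytic markers were lower in both interferon types than in GFP. In IFNA9 against IFNA4 tumors, 2 of the 3 melanocytic markers were higher (median log2 difference of the 3, 0.41) and 1 of the 4 leukocyte markers was lower (median of the 4, -0.51), as was 1 of the 6 fibroblast markers. The endothelial list summed to 162 to 409 CPM in GFP, 231 to 334 in IFNA4 and 121 to 210 in IFNA9 tumors, with 3 of 5 markers lower and 1 higher in IFNA4 than in GFP, and 3 of 5 lower in IFNA9 than in GFP and than in IFNA4. Of 6 macrophage markers, 1 was higher and 2 were lower in IFNA4 than in GFP tumors, and 1 was higher in IFNA9 tumors than in GFP and than in IFNA4. Of the 5 adipocyte markers 0 passed in edgeR in any comparison, while 2 in IFNA4 and 1 in IFNA9 tumors against GFP had an unadjusted p under 0.05, and DESeq2 called as many. Those of skeletal muscle were lower in IFNA9 tumors (3 of 5 against GFP, 4 of 5 against IFNA4). No marker was at 0 in a whole type.

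The 6 genes were chosen for differences between types, not for those among tumors of a type. Within a type, each gene was compared with these marker scores over 10 tumors. Of 162 relations, 20 passed an adjusted p under 0.05 for Pearson's r by permutation, 15 of them in GFP, 0 in IFNA4 and 5 in IFNA9 tumors. By Spearman's rho 0 of 162 passed, with 0.0506 as the smallest adjusted p, and 30 had an unadjusted p under 0.05 by permutation. Without GFP tumor 7, 0 of 162 passed, with 0.0533 as the smallest adjusted p. The 5 relations in IFNA9 tumors do not include GFP tumor 7 and lost their call through the adjustment over the family. Of the 15 relations in GFP tumors, r without that tumor is given below for each.

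Cyp26b1 followed fibroblast markers most closely in GFP tumors (r = 0.96, adjusted permutation p = 0.0134, rho = 0.92, adjusted permutation p = 0.0506), with r = 0.84 after the 2 most extreme tumors were left out and 0.90 without GFP tumor 7. In the same tumors it also followed leukocyte (r = 0.95), macrophage (r = 0.93), endothelial (r = 0.90) and CCR7 dendritic cell (r = 0.90) markers. These 4 were, without GFP tumor 7, 0.88, 0.84, 0.77 and 0.74, and without the 2 most extreme tumors 0.79, 0.90, 0.60 and 0.77. In IFNA4 tumors its r was 0.04 with fibroblast, -0.46 with leukocyte, 0.06 with macrophage, -0.37 with endothelial and 0.06 with CCR7 dendritic cell markers, and in IFNA9 tumors it was 0.52, 0.48, 0.74, 0.55 and 0.58. In IFNA9 tumors it followed keratinocyte markers (r = 0.94, adjusted permutation p = 0.0208, rho = 0.88, adjusted permutation p = 0.0512), with r = 0.72 without the 2 most extreme tumors. With these markers r was 0.47 in IFNA4 and 0.77 in GFP tumors. The GFP value was 0.25 without GFP tumor 7 and 0.07 without the 2 most extreme tumors. IFNA9 tumor 10 was lowest in both Cyp26b1 and the keratinocyte score.

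Crabp2 followed keratinocyte markers in GFP tumors (r = 0.90, adjusted permutation p = 0.0266, rho = 0.62, adjusted permutation p = 0.318) and in IFNA9 tumors (r = 0.89, adjusted permutation p = 0.0282, rho = 0.79, adjusted permutation p = 0.123). In IFNA9 tumors it also followed macrophage markers (r = 0.85) and ran against melanocytic markers (r = -0.90), as Cyp26b1 did (r = -0.91). Without the 2 most extreme tumors these 3 were 0.61, -0.61 and -0.56. For keratinocyte markers, leaving out the 2 most extreme tumors gave r = 0.67 and 0.64, leaving out GFP tumor 7 gave 0.67 in GFP tumors, and r was 0.15 in IFNA4 tumors, where neither value varied much. Crabp1 had its closest relation in GFP tumors with endothelial markers (r = 0.86, adjusted permutation p = 0.0239, rho = 0.77, adjusted permutation p = 0.123), with r = 0.88 without the 2 most extreme tumors and 0.70 without GFP tumor 7, and with r = 0.10 in IFNA4 and 0.37 in IFNA9 tumors. In the same tumors it also followed fibroblast (r = 0.84), leukocyte (r = 0.84) and macrophage (r = 0.81) markers and ran against melanocytic markers (r = -0.85). These 4 gave 0.65, 0.63, 0.59 and -0.67 without GFP tumor 7, and without the 2 most extreme tumors 0.72, 0.74, 0.73 and -0.37.

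Aldh1a1 followed adipocyte markers in GFP tumors (r = 0.93, adjusted permutation p = 0.0134, rho = 0.87, adjusted permutation p = 0.0593), with r = 0.78 without the 2 most extreme tumors and 0.90 without GFP tumor 7, and with r = 0.60 in IFNA4 and 0.37 in IFNA9 tumors. In the same tumors it also followed skeletal muscle (r = 0.86) and endothelial (r = 0.84) markers. These were 0.85 and 0.78 without GFP tumor 7, and without the 2 most extreme tumors 0.72 and 0.46. Aldh1a2 followed markers of CCR7 dendritic cells, mature antigen-presenting cells that migrate to lymph nodes, in GFP tumors (r = 0.84, adjusted permutation p = 0.0234, rho = 0.83, adjusted permutation p = 0.0782). Without the 2 most extreme tumors r was 0.55, without GFP tumor 7 it was 0.69, and it was 0.59 in IFNA4 and 0.05 in IFNA9 tumors. Aldh1a3 had 0 of 27 relations past the threshold, and its r with fibroblast markers was 0.14, -0.01 and -0.12 in the 3 types. In GFP tumors 1 library set several of its values. Without GFP tumor 7 its r was -0.51 with fibroblast markers, -0.81 in place of -0.26 with adipocyte markers, -0.77 in place of -0.45 with skeletal muscle markers and -0.61 in place of 0.06 with endothelial markers, and these did not pass the threshold either (smallest adjusted permutation p = 0.105). Whether r differs between types was not tested.

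**Figure D4:**
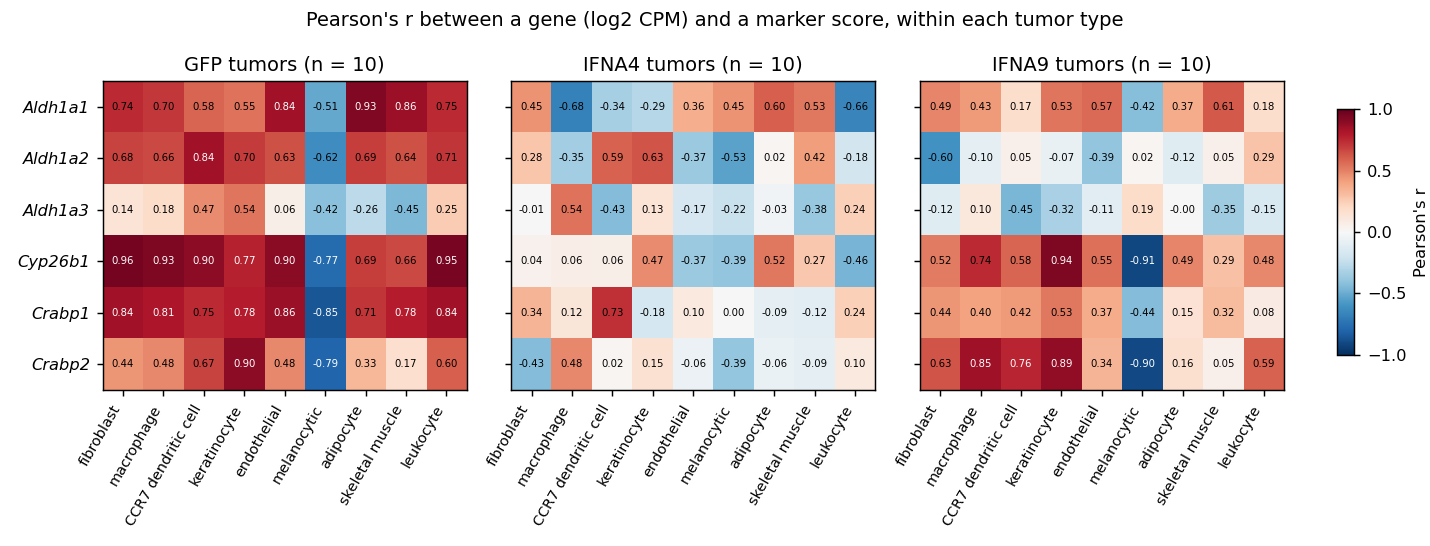
Each cell gives Pearson's r between the log2 CPM of 1 gene (rows) and a marker score (columns) within the 10 tumors of 1 type, from -1 (blue) to 1 (red). Cyp26b1 and Crabp1 have large r with most lists in GFP tumors, and Aldh1a3 has none past the threshold in any type.

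**Figure D5:**
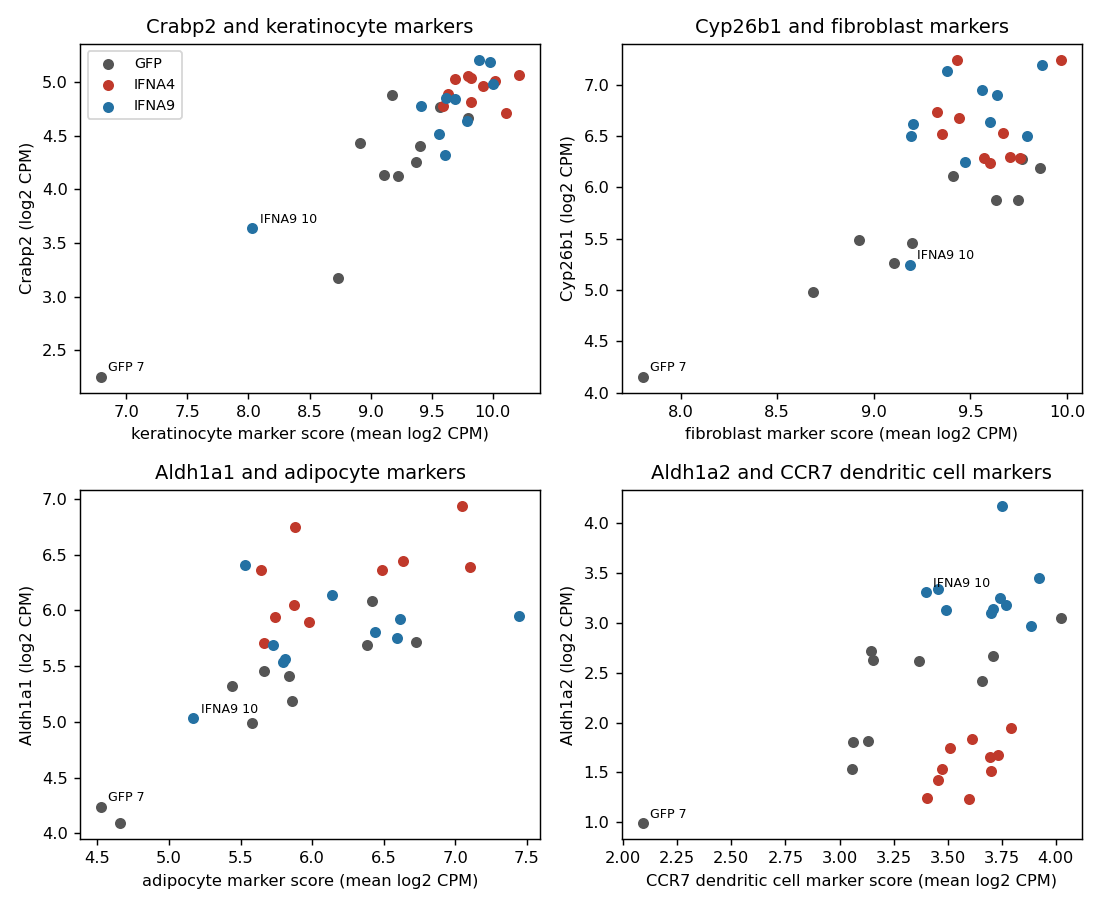
Points are single tumors, with the marker score (mean log2 CPM of the list) on the horizontal axis and the log2 CPM of the gene on the vertical axis, colored by type, with GFP tumor 7 and IFNA9 tumor 10 named. GFP tumor 7 lies at the lowest marker score in all 4 panels, and the IFNA9 tumors lie above the IFNA4 tumors in Aldh1a2. The part of CCR7 dendritic cells in that difference was not tested.

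Between the 6 genes themselves, 0 of 45 relations within a type passed the adjusted threshold by permutation, and 8 had an unadjusted p under 0.05 by Pearson's r and 6 by Spearman's rho. The closest were Cyp26b1 with Crabp2 in IFNA9 tumors (r = 0.91, adjusted permutation p = 0.0655) and Cyp26b1 with Crabp1 in GFP tumors (r = 0.83, adjusted permutation p = 0.0655). Without the 2 most extreme tumors these were 0.62 and 0.71, and the second was 0.64 without GFP tumor 7. Aldh1a1 and Aldh1a3 had negative r in each type (-0.31, -0.38 and -0.59). The GFP value was -0.83 without GFP tumor 7 (adjusted permutation p = 0.11), and without the 2 most extreme tumors the 3 values were -0.71, -0.15 and -0.22.

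The genes whose log2 CPM varied most like each of the 6 were named by Pearson's r over the 30 tumors after the mean of each type was removed, as a description. For Aldh1a1 they were Ghr (r = 0.91), Cav1 (0.91), Mettl7a2 (0.90), Fhl1 (0.89) and Acadsb (0.87). For Cyp26b1 they were Nfix (r = 0.92), Fmod (0.92), Cpz (0.90), Ntn1 (0.89) and Tns1 (0.89). For Crabp1 they were Thy1 (r = 0.87), Spon2 (0.87), Gas6 (0.86), Cyp2f2 (0.86) and Il4ra (0.86).
For Crabp2 they were Klk7 (r = 0.93), Emp2 (0.92), Grhl2 (0.92), Dsp (0.92) and Cds1 (0.92), several of which are genes of epithelia, although r within IFNA4 tumors ran only from -0.41 to 0.46. The closest genes to the other two were less alike. For Aldh1a2 they were Fcrla (r = 0.72), Cbfa2t3 (0.72), Ubtd2 (0.72), Lgi4 (0.71) and Ggta1 (0.70), and for Aldh1a3 Maml3 (r = 0.76), Brap (0.73), Tmem131l (0.72), Lurap1l (0.72) and Ntn4 (0.71). No gene was among the 5 for more than 1 of the 6. All tumors of a type share a line, and the composition of a tumor moves many genes at once.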

How the data were processed

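RNA of whole tumors was sequenced by the authors with a stranded mRNA kit as single-end reads of 50 bases. Per the labels and the paper's methods, reads were checked with FastQC 0.11.3, aligned with HISAT2 2.0.4 and counted per gene with summarizeOverlaps. The genome is mm10 in the submitters' processing notes and mm11 in the methods, and the annotation release, overlap mode, strand setting and handling of reads with several alignments are not given in the sources used here. The deposited values are counts, not normalized, for 39676 genes, of which 39495 identifiers were found in GENCODE M21 (GRCm38), the source of symbols, exon lengths and coordinates.

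Tumors were grouped by their labels, which give no batch and call them biological replicates. Genes averaging 10 or more counts per tumor were compared in R 4.3.3 with edgeR 4.0.16. A single quasi-likelihood model held all 30 tumors, with TMM scaling and Benjamini-Hochberg adjustment over 15926 genes. SEs were obtained from the fold change and F. Log2 CPM took a prior count of 2. Counting error is small at the depth given, except for genes with few counts such as Aldh1a2 and Stra6l.

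Relations within a type were tested by two-sided permutation with 100000 resamples and adjusted over the family of 162 or 45. The extreme tumors left out were the 2 farthest from the median score. The genes named are the 6 members, the receptors, pathway genes that passed with a change of at least 2-fold in 1 of the 3 comparisons, the 5 genes most like each member, and examples of each list. The members and gene lists were chosen with earlier results of these data known. Alternatives were library totals or DESeq2's size factors, DESeq2 1.42.0, filterByExpr or no filter, a replicate block, only the 20 tumors compared, and leaving out each tumor. Some genes of the lists enter the counts but are not reported by name here. The scripts were tested on simulated data. Plots were drawn with Python 3.11.15 and matplotlib 3.10.9.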

Additional observations from a re-analysis of the deposited data

Results flagged for a closer look

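Single tumors far from the other 9 of their type by Dixon's test were found in 13 of 84 groups searched, where chance gives about 4.2 (1 in 20). GFP tumor 7 was lowest in Rdh1 (log2 CPM -0.43), Rarres2 (3.99) and the CCR7 dendritic cell (2.09), keratinocyte (6.80) and leukocyte (4.81) marker scores, and highest in Rlbp1 (5.47). IFNA9 tumor 10 was lowest in Cyp26b1 (log2 CPM 5.25), Rdh1 (2.19) and the keratinocyte score (8.03). IFNA9 tumor 2 was highest in Aldh1a2 (log2 CPM 4.17, the others from 2.96 to 3.45). IFNA9 tumor 9 was lowest in Stra6l (log2 CPM 0.36). IFNA9 tumor 5 was highest in the skeletal muscle score (log2 CPM 10.9), and IFNA4 tumor 1 in the macrophage score (7.93).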

How the results depend on the processing

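With Spearman's rho, and also without GFP replicate 7, 0 relations with a marker score passed in place of 20. Asking for a change of at least 2-fold left 8, 4 and 1 retinoid pathway genes in place of 26, 21 and 7 in IFNA4 against GFP, IFNA9 against GFP and IFNA9 against IFNA4 tumors, by construction of a stricter rule. With only the 20 tumors compared in the fit, 11 pathway genes were called between IFNA9 and IFNA4 tumors in place of 7, and the cause was not tested. Leaving out 1 tumor at a time gave 24 to 27, 19 to 23 and 5 to 9 calls. It turned the sign of 4 differences near 0: between IFNA9 and IFNA4 tumors, Rxra (log2 -0.11 to 0.0083), Rxrb (log2 -0.12 to 0.0056) and Cyp26b1 (log2 -0.04 to 0.12, which also turned under the replicate block), and against GFP, Crabp1 in IFNA9 tumors (log2 -0.15 to 0.21). Of the calls of the 6 genes, Crabp2 in IFNA9 against GFP tumors was lost in 11 of these 30 fits, Aldh1a3 in IFNA4 against GFP in 7, Aldh1a1 in IFNA9 against GFP in 5, and Crabp1 in IFNA4 against GFP and Aldh1a3 in IFNA9 against IFNA4 in 2 each. With library totals in place of TMM, the median log2 difference of all genes moved from 0.01 to 0.09 in IFNA4 and from 0.00 to 0.10 in IFNA9 tumors against GFP, and the pathway calls between IFNA9 and IFNA4 tumors split into 4 higher and 3 lower in place of 3 and 4. In IFNA9 against GFP tumors they split into 14 and 7 in place of 12 and 9, and those of all genes into 5052 higher and 3608 lower in place of 4281 and 4595. The calls of all genes split into 5413 higher and 4758 lower in place of 4977 and 5435 in IFNA4 against GFP tumors. Between IFNA9 and IFNA4 tumors they split into 2030 and 916 in place of 1679 and 1154. Under library totals Crabp1 in IFNA9 against GFP tumors was at log2 0.07 in place of -0.04, and at 0.04 with the replicate block. With the replicate number as a block, 23, 20 and 7 pathway genes were called, and Rxrg passed the test in IFNA9 against GFP tumors (log2 -0.63). Deviations of tumors with the same replicate number correlated from -0.27 to 0.30. Tumors with different numbers were not compared in this way, so whether the numbers pair the samples was not tested. The 5 genes most like each of the 6 kept 3 to 5 of 5 under library totals, DESeq2's size factors or without GFP replicate 7, alternatives chosen after seeing the data. Depth limits genes with few counts, such as Aldh1a2 (21 to 299 per tumor) and Stra6l (4 to 124).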
